A study of Mus musculus with 9 samples.

Results

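The Clk kinases Clk1, Clk2, Clk3 and Clk4 and the SR splicing factors Srsf2, Srsf3, Srsf5, Srsf6, Srsf7 and Srsf10 were followed in bulk RNA-seq of mouse embryonic cerebral cortex at E12.5. The 10 genes were taken by name, matched by symbol to the Ensembl identifiers of the counts table, which lists 57010 genes, and read in all 9 embryos. All 10 had more than 10 reads in every embryo and entered the test. The question was whether the change in Clk1 is shared by other regulators of splicing. Clk1 is one of the mRNAs that the study followed after transcriptional shut-off, and it was picked there because its level was raised in these same cKO cortices and its codon optimality was low, so its level in cKO is a description here and not independent evidence.

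Each sample was the dissected cortex of a single embryo, with 3 embryos per genotype. Control (Ctrl) embryos carry the genotype label WT, and nothing further is given of their Cre or lox alleles. In Cnot3 cKO embryos Emx1-Cre deleted Cnot3 lox/lox, the gene of a subunit of the CCR4-NOT complex, which shortens poly(A) tails and so starts mRNA decay. In Cnot3;Trp53 dcKO embryos the same Cre also deleted Trp53 lox/lox, the gene of p53, the transcription factor that drives apoptosis in stressed progenitors. Emx1-Cre acts in radial glial cells of the dorsal telencephalon and in their progeny, so vessels, meninges and blood in the dissected tissue keep both genes. cKO and dcKO were set against the same 3 Ctrl embryos, and those comparisons are therefore not independent of each other.

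SR proteins bind short exonic sequences through an RNA recognition motif and draw the splicing machinery to nearby splice sites through a tail of arginine and serine repeats. CLK kinases phosphorylate the serines of that tail, which releases SR proteins from nuclear speckles and changes which splice sites they serve. Genes of both families limit their own output by making transcripts that carry a premature stop codon and are removed by nonsense-mediated decay (NMD), a process that runs beside the deadenylation-dependent decay that CCR4-NOT serves.

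The GENCODE M21 annotation (GRCm38) shows how much of this lies inside a single gene count. It lists 97 transcripts for the 10 genes, of which 32 are protein coding, 14 are NMD transcripts and 34 are retained-intron transcripts. NMD transcripts are annotated for 9 of the 10 genes, all but Srsf10, and retained-intron transcripts likewise for 9. Clk1 has 13 transcripts, and only 1 of them is protein coding, beside 2 NMD and 7 retained-intron transcripts. In Clk1, Clk2 and Clk3 an NMD transcript skips exon 4 of a 13-exon coding transcript and keeps both neighbouring exons, and this exon has 91 bases in Clk1, 85 in Clk2 and 97 in Clk3, none of them a multiple of 3. A pair of Clk4 NMD transcripts also lack exon 4, of 91 bases, but without keeping both neighbours, and their stop codon lies upstream of it. Reads from productive and unproductive transcripts add up in 1 count per gene, so the values below are sums over both.

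The sequences around the NMD stop codons are shown because they mark the unproductive products that the gene counts cannot separate from the coding ones. Each window has 27 bases of the transcript strand in GRCm38, from GENCODE M21, with the premature stop codon in capitals. In Clk1 the stop is in the exon that follows the skipped exon 4, at chr1:58419701-58419727 (minus strand), and in Clk3 it is at chr9:57755334-57755360 (minus strand). In Srsf3 it is in a 456-base exon (chr17:29039454-29039909, plus strand), and in Srsf7 in a 460-base exon (chr17:80204622-80205081, minus strand), in each case an exon absent from every protein-coding transcript of its gene and often called a poison exon. The windows of Srsf3 and Srsf7 are at chr17:29039473-29039499 and chr17:80205042-80205068.
Clk1 NMD stop: ttgttgatacttTAGgtgaaggtgctt
Clk3 NMD stop: cacaggttgcccTGAagatcatccgta
Srsf3 poison exon: ctcaccaccctcTGAatctgcattagc
Srsf7 poison exon: agtcagtcgcctTGAttcagaatgtca

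The primers that the study used for Clk1 in its decay assay read a narrower product than the gene count does. The forward primer lies in exon 3 (chr1:58421148-58421168). The reverse primer crosses the junction of exons 3 and 4 (chr1:58420197-58421086, the intron included), with 15 of its 19 bases in exon 4, given in capitals below. The forward primer is found in 6 of the 13 annotated Clk1 transcripts, and the reverse primer and the whole 101-base amplicon in 1, the protein-coding transcript.
Clk1 forward primer: gcaagtcctctggtaggagtg
Clk1 reverse primer: CCTTCGGTGACTCTTcccg

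Some of the reads could also belong to copies or neighbours of these genes. Genes elsewhere in the genome with at least 95% identity over at least 100 bases were found for 3 of the 10, namely 5 for Srsf3, 2 for Srsf10 and 1 for Srsf5. These copies held 8.15% to 9.19% of the reads summed over Srsf3 and its copies in the 9 embryos, 1.67% to 3.05% for Srsf5 and 0.588% to 1.38% for Srsf10. Exons of the opposite strand overlap Clk3 (Edc3, 1121 bases shared) and Srsf2 (Mettl23, 460 bases, and Mfsd11, 289 bases). The libraries were stranded, but the strand setting of the read counting is not given in the sources used here, so the levels of Clk3 and Srsf2 are uncertain to that extent.

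The deleted genes were checked first, in counts-per-million (CPM), which scale reads by each library's depth and its TMM factor. Cnot3 was at 98.2 to 117.3 CPM in Ctrl and at 14.6 to 17.3 CPM in cKO, while dcKO 1, 2 and 3 had 7.33, 48.2 and 19.0 CPM. Its log2 fold changes were -2.78 in cKO (edgeR adjusted p = 0.0509) and -2.11 in dcKO (edgeR adjusted p = 0.0529). Trp53 was at 215 to 254 CPM in Ctrl and at 164 to 167 CPM in cKO, below every Ctrl embryo (log2 fold change -0.50, edgeR adjusted p = 0.616). In dcKO 1, 2 and 3 it had 15.1, 110.4 and 20.6 CPM (log2 fold change -2.27, edgeR adjusted p = 0.0605). dcKO 2 thus kept more of both deleted genes than the other dcKO embryos, and it held 47 reads of Dlx1, 88 of Dlx2, 80 of Gad2 and 96 of Gsx2, all subpallial genes, against 8 or fewer of each in every other embryo. Libraries held 21193798 to 28869816 reads in Ctrl, 24835674 to 25946075 in cKO and 23275370 to 45073349 in dcKO. The dcKO embryos also differed from each other in how read counts followed GC content. The mean deviation of genes at 40% GC exceeded that at 55% GC by 0.85 in dcKO 1 and 1.26 in dcKO 2 on the log2 scale, but was 0.74 below it in dcKO 3 (-0.74). In Ctrl it was between -0.55 and -0.25, and in cKO between -0.14 and 0.09. The separation of dcKO from Ctrl is therefore also given with a correction for GC content, and without single dcKO embryos. By this measure dcKO 3 was the dcKO embryo nearest to Ctrl. The fits without it keep dcKO 1 and dcKO 2, which were furthest from Ctrl, and are not corrected for GC content.

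Per kilobase of merged exons, the SR genes were expressed far above the Clk genes in Ctrl cortex. Srsf3 stood at 117.2 ± 1.59 CPM per kb (mean ± SD, n = 3), Srsf7 at 112 ± 4.36 and Srsf2 at 107 ± 13.1, and the ranges of these 3 genes overlapped. Srsf6 followed at 61.4 ± 0.650 CPM per kb, and then Srsf5 at 41.4 ± 3.11 and Srsf10 at 40.8 ± 1.66, which overlapped each other. The kinases were lowest, with Clk2 at 8.23 ± 0.695, Clk3 at 5.92 ± 0.297, Clk4 at 3.32 ± 0.461 and Clk1 at 2.57 ± 0.265 CPM per kb. The ranges of Clk4 and Clk1 nearly met, at 2.90 to 3.81 and 2.39 to 2.87 CPM per kb, and not scaled by length the 2 genes overlapped (16.8 to 22.1 and 19.4 to 23.4 CPM). Merged exons include those of retained introns, so these levels depend on the annotated length.

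Clk1 encodes a dual-specificity kinase of SR proteins (ENSMUSG00000026034.18, chr1:58410189-58424066, minus strand). Its level was 19.4, 19.9 and 23.4 CPM in Ctrl, 29.8, 34.2 and 38.8 CPM in cKO and 60.4, 50.7 and 18.4 CPM in dcKO. All 3 cKO embryos lay above all 3 Ctrl embryos, and so did dcKO 1 and dcKO 2, while dcKO 3 was the lowest of the 9. The mean CPM was 1.64 times that of Ctrl in cKO and 2.07 times that of Ctrl in dcKO. In edgeR's model of all 9 embryos the log2 fold change was 0.71 (SE 0.36, adjusted p = 0.236) in cKO and 1.05 (SE 0.37, adjusted p = 0.0999) in dcKO, neither of which passed the threshold of an adjusted p under 0.05. DESeq2 called Clk1 in dcKO, with a log2 fold change of 1.02 and an adjusted p of 0.0489, and did not in cKO (0.70, adjusted p = 0.210).

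The dcKO embryos were far apart for Clk1, the highest with 3.29 times the level of the lowest, against 1.20 times in Ctrl and 1.30 times in cKO. The median of all tested genes was 2.06 times in dcKO, against 1.24 times in Ctrl and in cKO. With only the 6 Ctrl and cKO embryos in the fit, the same log2 difference of 0.71 had an SE of 0.14 and an edgeR adjusted p of 0.00233. Without dcKO 3, edgeR gave 1.41 (SE 0.17, adjusted p = 3.22e-04) for dcKO against Ctrl, and 0.71 (adjusted p = 0.0106) for cKO. After the GC correction Clk1 was still above every Ctrl embryo in all cKO embryos, with a difference of 0.47 on the log2 scale, but dcKO overlapped Ctrl with a difference of 0.38. The dcKO values of Clk1 thus moved with GC content and with 1 embryo. Over 31 alternative settings the log2 fold change of Clk1 in cKO lay between 0.48 and 0.89, whereas in dcKO it lay between -0.35 and 1.41.

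**Figure D1:**
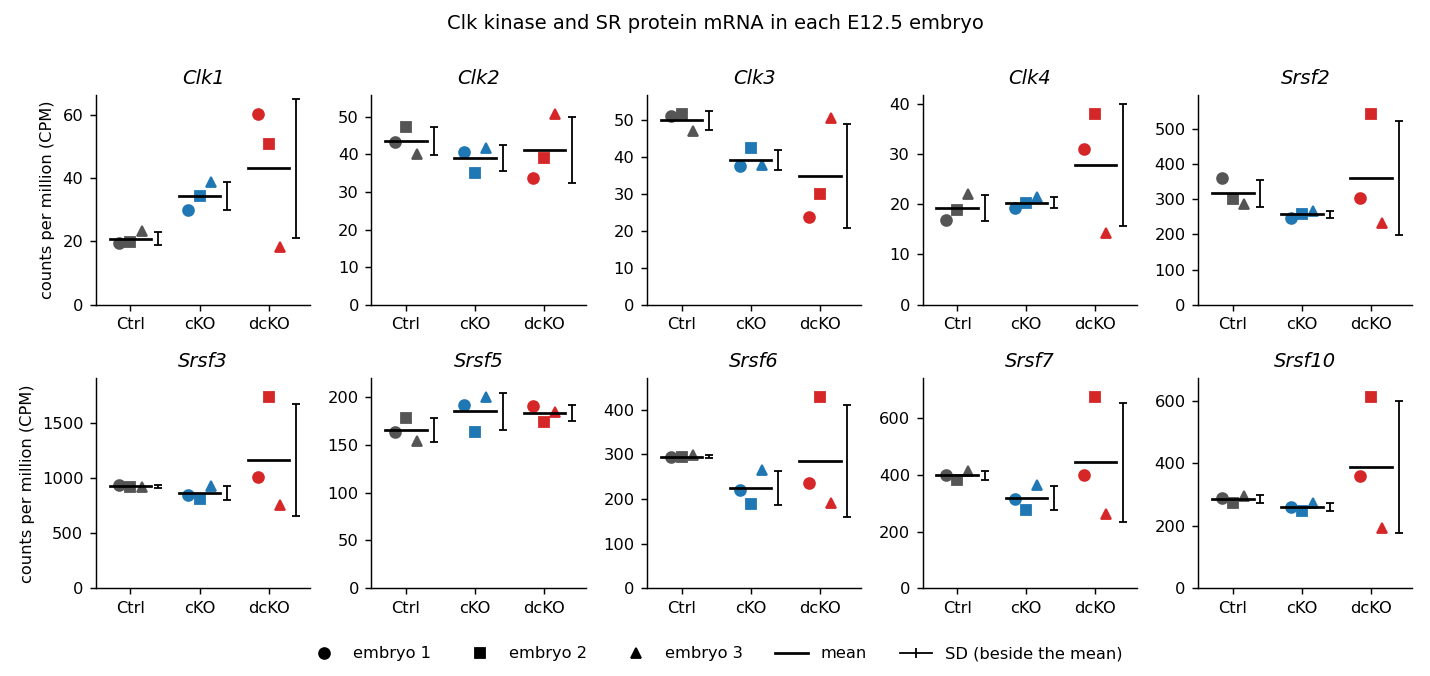
Level of each of the 10 genes in counts-per-million (CPM, linear axes from 0) in the 3 Ctrl, 3 cKO and 3 dcKO embryos, with 1 symbol for each embryo number, a line at the mean and a bar of 1 SD beside it. Clk1 sits at 29.8 to 38.8 CPM in cKO above the 19.4 to 23.4 CPM of Ctrl, and the dcKO embryos lie 2.13 to 3.29 times apart for every gene but Srsf5 (1.10) and Clk2 (1.51).

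None of the other Clk kinases was above every Ctrl embryo in cKO. Clk2, a kinase of the same family (ENSMUSG00000068917.13, chr3:89164795-89176921, plus strand), was at 43.3, 47.4 and 40.1 CPM in Ctrl, 40.6, 35.1 and 41.6 CPM in cKO and 33.6, 39.1 and 50.8 CPM in dcKO. Its groups overlapped throughout, and its log2 fold changes were -0.16 in cKO and -0.081 in dcKO, with 95% confidence intervals of -0.60 to 0.28 and -0.52 to 0.36.

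Clk3, another kinase of the family (ENSMUSG00000032316.9, chr9:57750624-57765860, minus strand), was at 51.1, 51.8 and 47.2 CPM in Ctrl, 37.7, 42.5 and 38.0 CPM in cKO and 23.8, 30.1 and 50.7 CPM in dcKO. Every cKO embryo was below every Ctrl embryo, and dcKO 1 and dcKO 2 were lower still, while dcKO 3 stood within Ctrl. The log2 fold changes were -0.35 (SE 0.26, edgeR adjusted p = 0.419) in cKO and -0.52 (SE 0.26, edgeR adjusted p = 0.209) in dcKO. In the cKO embryos and in dcKO 1 and dcKO 2, Clk3 was thus on the opposite side of Ctrl from Clk1. It moved to -0.89 (edgeR adjusted p = 0.00159) in dcKO without dcKO 3. After the GC correction every dcKO embryo was below every Ctrl embryo for Clk3, with a log2 fold change of -0.37.

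Clk4 is the nearest relative of Clk1 in the family (ENSMUSG00000020385.17, chr11:51261730-51281766, plus strand). It was at 16.8, 18.9 and 22.1 CPM in Ctrl, 19.2, 20.2 and 21.5 CPM in cKO and 31.0, 38.0 and 14.3 CPM in dcKO. In cKO its values lay inside the range of Ctrl, with a log2 fold change of 0.076 and a 95% confidence interval of -0.64 to 0.80. As for Clk1, dcKO 1 and dcKO 2 were above every Ctrl embryo and dcKO 3 was the lowest of the 9, with a log2 fold change of 0.53 (SE 0.32, edgeR adjusted p = 0.296). This difference was -0.080 after the GC correction, where the 2 groups overlapped.

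Of the 6 SR genes, 3 were below every Ctrl embryo in cKO, where 28% of all tested genes were, and the other 3 overlapped Ctrl. Once GC content was corrected for, 5 of the 6 were below, where 32% of all tested genes with a GC value were. Srsf2, which encodes a general activator of exon inclusion (ENSMUSG00000034120.19, chr11:116849901-116853094, minus strand), was at 361, 302 and 288 CPM in Ctrl, 247, 259 and 266 CPM in cKO and 303, 544 and 233 CPM in dcKO. Srsf6, which encodes an SR protein with a second, atypical RNA recognition motif (ENSMUSG00000016921.15, chr2:162931528-162937121, plus strand), was at 294, 294 and 299 CPM in Ctrl, 220.1, 188 and 264 CPM in cKO and 236, 428 and 191 CPM in dcKO. Both genes had every cKO embryo below every Ctrl embryo, whereas dcKO 2 was the highest and dcKO 3 the lowest or near the lowest embryo. The log2 fold changes in cKO were -0.30 (SE 0.28, edgeR adjusted p = 0.512) for Srsf2 and -0.40 (SE 0.28, edgeR adjusted p = 0.381) for Srsf6.

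Srsf3 and Srsf7 encode closely related SR proteins, which also act in mRNA export. Srsf7 (ENSMUSG00000024097.12, chr17:80200080-80207307, minus strand) was at 400.3, 382 and 413 CPM in Ctrl, 315, 276 and 362 CPM in cKO and 398, 672 and 262 CPM in dcKO. All cKO embryos were below Ctrl, with a log2 fold change of -0.33 (SE 0.29, edgeR adjusted p = 0.501). Srsf3 (ENSMUSG00000071172.14, chr17:29032628-29043373, plus strand) was at 940.3, 917 and 921 CPM in Ctrl, 850.4, 810.3 and 933 CPM in cKO and 1006, 1733 and 753 CPM in dcKO. Its cKO embryos overlapped Ctrl, with a log2 fold change of -0.10 and a 95% confidence interval of -0.70 to 0.50.

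Srsf10 encodes an SR protein that acts as a repressor of splicing once it is dephosphorylated (ENSMUSG00000028676.18, chr4:135855747-135869908, plus strand). It was at 287, 273 and 296 CPM in Ctrl, 258, 248 and 274 CPM in cKO and 359, 610.4 and 193 CPM in dcKO. The dcKO values ran from the lowest to the highest of the 9 embryos, 3.16 times apart, and the log2 fold change of 0.44 (SE 0.33) had an edgeR adjusted p of 0.387. Srsf5, of the same SR subgroup as Srsf6 (ENSMUSG00000021134.18, chr12:80945504-80950507, plus strand), was at 164, 178 and 154 CPM in Ctrl, 192, 163 and 199 CPM in cKO and 191, 174 and 184 CPM in dcKO. It was the steadiest of the 10 genes in dcKO, with the highest embryo 1.10 times the lowest, and its log2 fold changes were 0.16 in cKO and 0.15 in dcKO.

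With a call defined as an edgeR adjusted p under 0.05 together with a change of more than 1 in either direction on the log2 scale, 0 of the 10 genes were called in cKO, where 0.0146% of all tested genes were called. In dcKO 0 were called, against 0% of all tested genes, and between dcKO and cKO 0 were called, against 0.0146%. This rule also did not call the deleted genes, Cnot3 in either mutant and Trp53 in dcKO. The absence of a call therefore does not show that a gene was unchanged. At an unadjusted edgeR p under 0.05, 0 of the 10 genes passed in cKO, where 15.3% of all tested genes passed as higher and 11.7% as lower. In dcKO 1 passed, Clk1 as higher, where 18% of all tested genes passed as higher and 11.2% as lower. Between dcKO and cKO 0 passed, beside 2.05% as higher and 2.38% as lower. DESeq2 called 0 of 10 in cKO (8.82% of all tested genes), 1 of 10 in dcKO, Clk1 (8.46%), and 0 of 10 between dcKO and cKO (0.38%).

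In cKO, 1 of the 10 genes (Clk1) was above every Ctrl embryo in all cKO embryos, and 29.2% of all tested genes were. Another 4 (Clk3, Srsf2, Srsf6 and Srsf7) were below every Ctrl embryo, and 28% of all tested genes were. With 3 against 3 embryos the smallest p of the exact two-sided permutation test is 0.1, the value of these 5 genes. When edgeR was fitted to Ctrl and cKO alone, the same 5 genes had an adjusted p under 0.05 irrespective of fold, 1 as higher (24% of all tested genes) and 4 as lower (24.2% of all tested genes). In that fit Clk3 was at -0.34 (SE 0.10, edgeR adjusted p = 0.0182), Srsf2 at -0.30 (SE 0.10, edgeR adjusted p = 0.0256), Srsf6 at -0.40 (SE 0.11, edgeR adjusted p = 0.0146) and Srsf7 at -0.33 (SE 0.10, edgeR adjusted p = 0.0229). In this fit and by this threshold, a combination chosen after seeing the data, Clk1 rose while Clk3 and 3 SR genes fell, all by less than 2-fold. With the GC correction in the fit of all 9 embryos, Srsf6 and Srsf7 passed in cKO. Clk1 (edgeR adjusted p = 0.155), Clk3 (edgeR adjusted p = 0.204) and Srsf2 (edgeR adjusted p = 0.332) did not pass there. The median log2 fold change of the 10 genes in cKO was -0.15, beside 0.0098 for all tested genes, and 3 of the 10 were above 0, beside 50.7% of all tested genes.

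**Figure D2:**
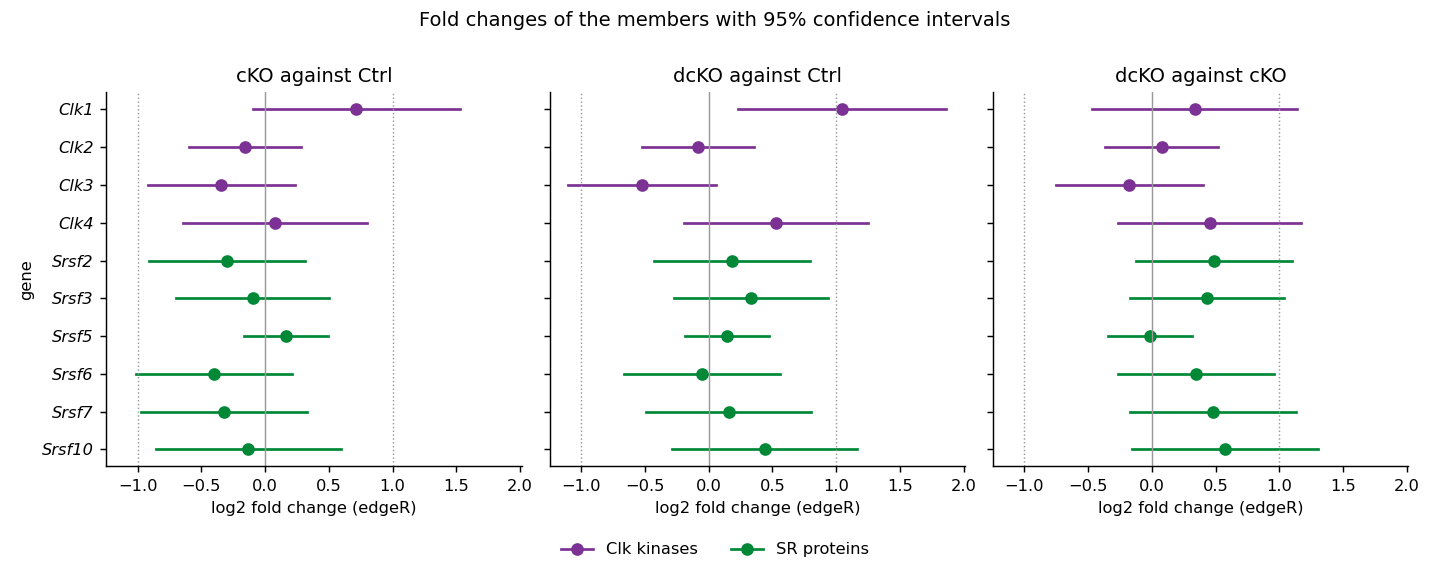
edgeR log2 fold change (horizontal axis) of each of the 10 genes (vertical axis) in the 3 comparisons, with points for the estimate and lines for the 95% confidence interval from the model of all 9 embryos, Clk kinases in purple and SR genes in green. Clk1 is the only gene at or above 0.70 in cKO (0.71) and above 1 in dcKO (1.05), and every interval in cKO includes 0.

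In dcKO, 0 of the 10 genes were above every Ctrl embryo and 0 below, beside 15.6% and 11.2% of all tested genes. dcKO 2 was the highest of the 9 embryos for 6 of the 10 genes, as for 28.5% of all tested genes, and dcKO 3 the lowest for 6, as for 17.7%. Both held together for 5 genes, Clk4, Srsf2, Srsf3, Srsf7 and Srsf10, and for 13.7% of all tested genes.

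Without dcKO 3, 4 of the 10 genes (Clk1, Clk4, Srsf3 and Srsf10) were above and 2 (Clk2 and Clk3) below every Ctrl embryo, beside 32.3% and 30.7% of all tested genes. Without dcKO 2 they were 1 above (Srsf5, beside 25.2% of all tested genes) and 1 below (Srsf6, beside 20.1%). Without dcKO 1 there were none, beside 16.8% above and 12.1% below of all tested genes. In the edgeR fit without dcKO 3, 5 of the 10 genes had an adjusted p under 0.05 irrespective of fold, Clk1, Clk4 at 0.84 (adjusted p = 0.00443), Srsf3 at 0.56 (adjusted p = 0.0380) and Srsf10 at 0.76 (adjusted p = 0.00795) as higher and Clk3 as lower. Without dcKO 2 instead, Srsf3 was at -0.074 and Srsf10 at -0.049, and Clk4 at 0.24, none of which passed. The fit without dcKO 3 at this threshold was chosen after seeing the data. It keeps dcKO 1 and dcKO 2, where low-GC genes were read more deeply. In these embryos the GC-corrected log2 values against the Ctrl mean were 0.027 and 0.032 for Clk4. They were -0.51 and 0.069 for Srsf3 and -0.28 and 0.30 for Srsf10. Clk1 (0.87 and 0.35) and Clk3 (-0.77 and -0.30) kept their direction. The background in the fit without dcKO 3 was 25.5% of all tested genes as higher and 23.7% as lower. For cKO against Ctrl that fit passed Clk1 alone of the 10, beside 14.8% of all tested genes as higher and 14.8% as lower. The median log2 fold change of the 10 genes over all dcKO embryos was 0.17, beside 0.11 for all tested genes, and 7 of the 10 were above 0, beside 56.9% of all tested genes. With the GC correction that median was -0.17, beside 0.012 for all tested genes with a GC value. With only the Ctrl and dcKO embryos in the fit, edgeR gave 0 of the 10 genes an adjusted p under 0.05, and 0% of all tested genes.

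Between dcKO and cKO the log2 fold changes of the 10 genes ranged from -0.18 (Clk3) to 0.57 (Srsf10), with edgeR adjusted p-values between 0.889 and 0.999. The value for Clk1 was 0.33, with a 95% confidence interval of -0.47 to 1.14. Of the 10 genes 8 were above 0, beside 58.6% of all tested genes, while 0 had every dcKO embryo above every cKO embryo and 0 below, beside 2.62% and 3.63%. No difference between the mutants was detectable for these genes against the spread of the dcKO embryos. In the edgeR fit without dcKO 3, 7 of the 10 genes had an adjusted p under 0.05 irrespective of fold, 6 of them higher in dcKO than in cKO (13.5% of all tested genes) and Clk3 lower (13.1%). This combination was chosen after seeing the data and is not corrected for GC content. With the GC correction in the fit of all dcKO embryos, the edgeR adjusted p-values of the 10 genes were 0.686 to 0.969.

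Clk1 was also set against each other gene within the same embryo, as the log2 ratio of their CPM, which removes what a pair of genes shares in a library. In cKO the ratio of Clk1 to all 9 other genes was above every Ctrl embryo, by 0.55 (Srsf5) to 1.12 (Srsf6) on the log2 scale, and the same held for 64.9% of all other tested genes. In dcKO the ratio was above every Ctrl embryo for 4 of the 9 genes, Clk4, Srsf6, Srsf7 and Srsf10, and for 21.3% of all other tested genes. No ratio in dcKO was above every cKO embryo, as for 1.03% of all other tested genes. The ratio of Clk1 to Clk4 was 0.21, 0.074 and 0.080 in Ctrl, 0.63, 0.76 and 0.85 in cKO and 0.96, 0.41 and 0.36 in dcKO. Clk1 thus stood further above Clk4, a gene of nearly the same GC content (39.2% and 38.8%), in all 6 mutant embryos than in any Ctrl embryo, dcKO 3 included. After the GC correction the ratio of Clk1 to all 9 genes was still above every Ctrl embryo in cKO, as for 57.1% of all other tested genes with a GC value were, and to 3 genes in dcKO, where 23.4% were. The exact permutation p was 0.1, its smallest value, for each of the 13 non-overlapping ratios among the 27 that were tested.

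**Figure D3:**
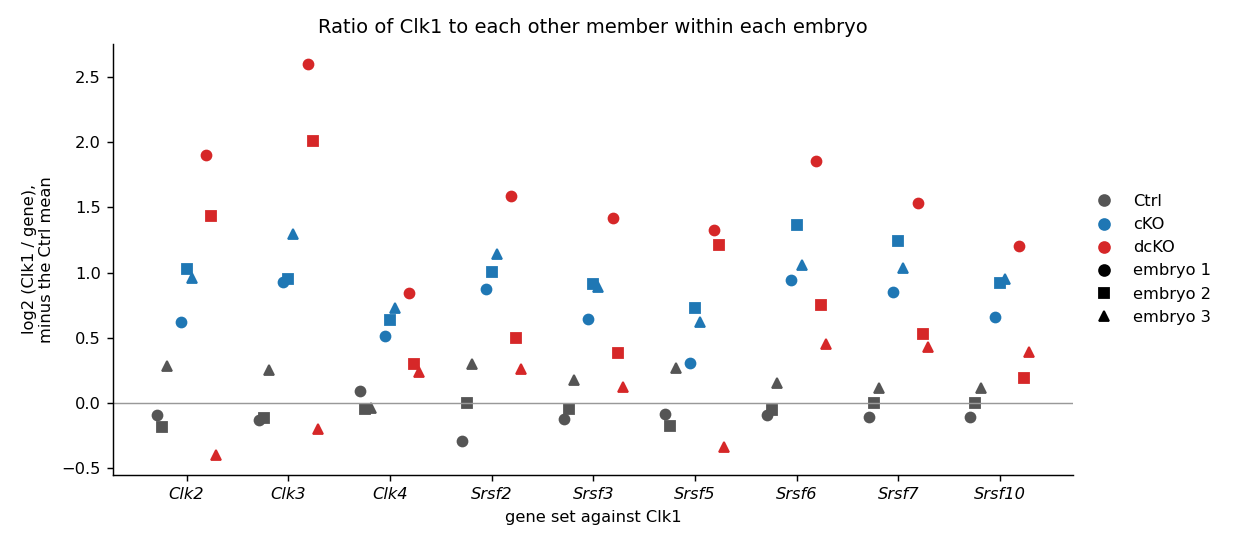
Log2 ratio of Clk1 to each of the 9 other genes (horizontal axis) within each embryo, less the mean of the 3 Ctrl embryos (vertical axis), with colours for genotype and symbols for embryo number. All cKO points lie above all Ctrl points for every gene, whereas dcKO 3 falls below 0 for Clk2, Clk3 and Srsf5 and stays above Ctrl for Clk4, Srsf6, Srsf7 and Srsf10.

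The dcKO values differed with GC content. Of the 10 genes, 7 had between 38.8% and 42.8% GC in their longest transcript, and Srsf2 (50.0%), Clk3 (52.6%) and Clk2 (55.4%) more. In dcKO 1 and dcKO 2, the embryos where low-GC genes were read more deeply, Clk1 was 1.54 and 1.28 above the mean of Ctrl on the log2 scale and Clk3 was at -1.07 and -0.73. After the GC correction Clk1 was at 0.87 and 0.35 and Clk3 at -0.77 and -0.30 in these embryos. In dcKO 3 the values were -0.18 for Clk1 and 0.021 for Clk3, and -0.085 and -0.13 after correction. The correction turned the sign of 6 of the 10 log2 fold changes in dcKO (Clk2, Clk4, Srsf3, Srsf5, Srsf7 and Srsf10) and of 3 in cKO (Clk2, Clk4 and Srsf5). It left 1 gene above and 6 genes below every Ctrl embryo in cKO, where 25.4% and 32% of all tested genes with a GC value were. In dcKO it left 0 above and 3 below (Clk3, Srsf6 and Srsf7). That made 3 of 10 above or below, beside 25.4% of those genes above or below. In the edgeR fit of all 9 embryos with the GC correction, 2 of the 10 genes had an adjusted p under 0.05 irrespective of fold in cKO, Srsf6 at -0.67 (SE 0.18, adjusted p = 0.0448) and Srsf7 at -0.59 (SE 0.17, adjusted p = 0.0470). Both were lower, as were 5.79% of all tested genes with a GC value, and 4.91% were higher. In dcKO 0 of the 10 passed there, beside 1.64% as higher and 0.944% as lower. With the replicate number added as a block neither passed in cKO, where 0 of all tested genes passed as lower.

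**Figure D4:**
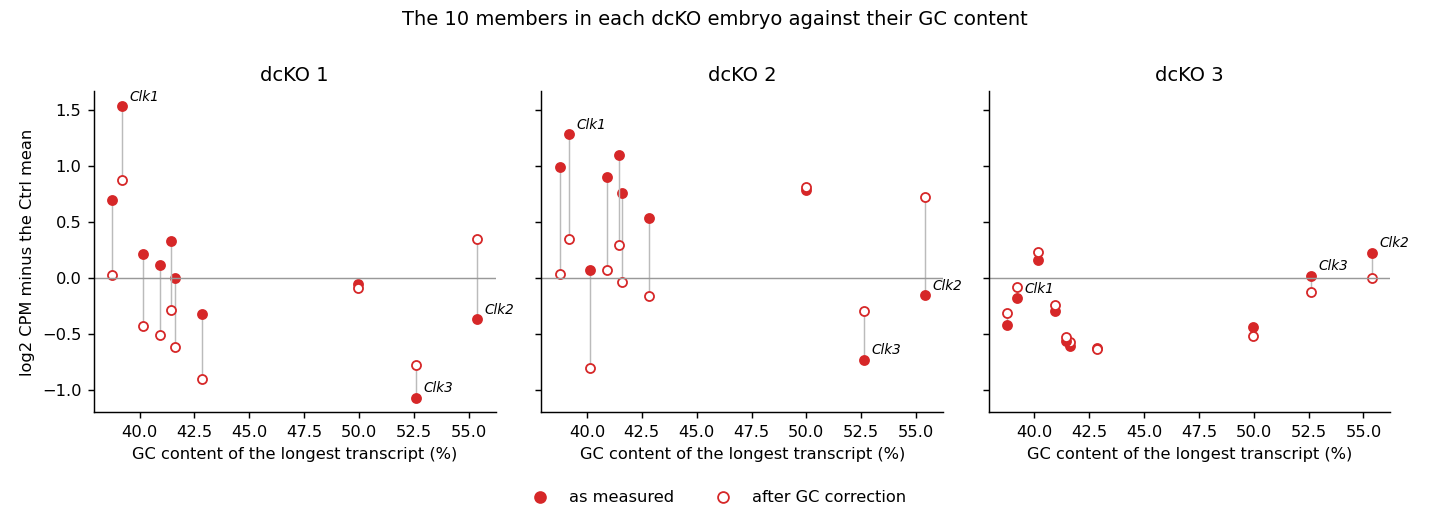
Log2 CPM of the 10 genes in each dcKO embryo less the mean of the 3 Ctrl embryos (vertical axis) against the GC content of the gene's longest transcript (horizontal axis, percent), as measured (filled) and after the GC correction (open), each pair joined by a line. Clk1 moves from 1.54 to 0.87 in dcKO 1 and from 1.28 to 0.35 in dcKO 2, while dcKO 3 changes little.

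The labels of the embryos carry a number that 2 embryos can share, called the collection number here, though no label says what it stands for. Within such pairs Clk1 was 0.82 higher in cKO 2 than in Ctrl 1 and 0.96 higher in cKO 3 than in Ctrl 2 on the log2 scale. dcKO 3, the only dcKO embryo that shares its number with a Ctrl embryo, had Clk1 at -0.35 against Ctrl 3, and Srsf6, Srsf7 and Srsf10 at -0.65, -0.66 and -0.62. Within numbers only these 3 pairs can be compared. With the number as a block in the edgeR model, Clk1 was higher in cKO (21.5% of all tested genes were) and Clk3, Srsf2, Srsf6 and Srsf7 lower (23.5%), at an adjusted p under 0.05 irrespective of fold. That fit rests on 2 pairs and leaves 1 residual degree of freedom. For dcKO it rests on dcKO 3 alone, and no dcKO embryo shares a number with a cKO embryo, so no call is drawn from it there.

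The rest of the SR pathway was read from lists of genes grouped by function. Of the 7 other SR and SR-like genes, edgeR called 0 in each comparison, beside 0.0146% or less of all tested genes. DESeq2 called 1, Srsf12, in cKO, beside 8.82% of all tested genes. Srsf12, a low-level SR-related repressor, was at 1.63, 2.73 and 2.49 CPM in Ctrl and at 5.22, 5.95 and 5.69 CPM in cKO, with a log2 fold change of 1.30 (DESeq2 adjusted p = 0.0105, edgeR adjusted p = 0.0695). In dcKO it was at 4.16, 2.15 and 4.51 CPM and overlapped Ctrl. Srsf9, an SR protein close to Srsf1, was at 101 to 138 CPM in Ctrl, 66.4 to 76.9 CPM in cKO and 54.1 to 94.6 CPM in dcKO. Its log2 fold changes were -0.78 (DESeq2 adjusted p = 0.0175) and -0.68 (DESeq2 adjusted p = 0.0342), below the size needed for a call, and the edgeR adjusted p-values were 0.0663 and 0.0829. In cKO 5 of the 7 genes were below every Ctrl embryo (28% of all tested genes) and 1 above, Srsf12 (29.2%). At an unadjusted edgeR p under 0.05, Srsf12 passed as higher (15.3% of all tested genes) and Srsf9 as lower (11.7%) in cKO, and Srsf9 as lower (11.2%) in dcKO.

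Among the other kinases, the import receptor and the phosphatase that act on SR proteins, 6 of 7 genes were tested and 0 were called by either tool in any comparison. DESeq2 called 8.82% of all tested genes in cKO, 8.46% in dcKO and 0.38% between them, and edgeR 0.0146% or less. Srpk3 did not pass the filter. Srpk2, which phosphorylates SR proteins in the cytoplasm so that they enter the nucleus, was at 99.2, 84.3 and 84.2 CPM in Ctrl, 141, 137 and 139.6 CPM in cKO and 176, 159.8 and 106 CPM in dcKO. All 6 mutant embryos lay above all Ctrl embryos, and the log2 fold changes were 0.64 (DESeq2 adjusted p = 0.0430, edgeR adjusted p = 0.0798) in cKO and 0.72 (DESeq2 adjusted p = 0.0230, edgeR adjusted p = 0.0607) in dcKO. The difference was under 2-fold and short of a call. After the GC correction Srpk2 was still above every Ctrl embryo in all cKO embryos, while dcKO overlapped Ctrl. Prpf4b, a kinase of the tri-snRNP, had log2 fold changes of 0.35 and 0.63 and edgeR adjusted p-values of 0.366 and 0.117. Among these 6 genes an unadjusted edgeR p under 0.05 was reached by 1 as higher in cKO, Srpk2, and by 2 as higher, Srpk2 and Prpf4b, and 1 as lower, Ppp1ca, in dcKO. The shares of all tested genes were those given above, 15.3% as higher in cKO, and 18% as higher and 11.2% as lower in dcKO.

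The SR-related speckle genes (11 tested) had 0 calls by either tool, beside 8.82% of all tested genes by DESeq2 in cKO and 8.46% in dcKO. The edgeR share was 0.0146% or less. The largest mean differences were those of Bclaf1, at 0.38 in cKO and 0.60 in dcKO, and Rbm39, at 0.24 and 0.66, none of which passed. At an unadjusted edgeR p under 0.05, 0 of the 11 passed in cKO, while both of these genes passed as higher in dcKO, as did 18% of all tested genes. The hnRNP genes, many of which oppose SR proteins, also had 0 calls among 22 tested. By DESeq2 8.82% of all tested genes were called in cKO and 8.46% in dcKO, and by edgeR 0.0146% or less. All but 1 of the 22 had a log2 fold change below 0 in cKO, with a list median of -0.24, and 14 had every cKO embryo below every Ctrl embryo, beside 28% of all tested genes. In dcKO 12 of 22 were above 0, the list median was 0.058, and 1 was below every Ctrl embryo, beside 11.2%. With GC content corrected for, 21 of the 22 were below every Ctrl embryo in cKO. The share of all tested genes with a GC value was 32%. In dcKO 11 were below and 0 above, so 11 of 22 were above or below, as were 25.4% of those tested genes. The largest mean differences were those of Ptbp1 (-0.85 and -0.92) and Hnrnpa0 (-1.07 and -0.15), with edgeR adjusted p-values of 0.118 or more. At an unadjusted edgeR p under 0.05, 2 hnRNP genes passed in each mutant, all as lower, as did 11.7% of all tested genes in cKO and 11.2% in dcKO.

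Of the core spliceosome genes, DESeq2 called 3 of 23 in cKO and 2 of 23 in dcKO, all as lower, beside 8.82% and 8.46% of all tested genes in either direction. The edgeR count was 0, beside 0.0146% or less of all tested genes. At an unadjusted edgeR p under 0.05, 10 passed as lower (11.7% of all tested genes) and 1 as higher (15.3%) in cKO, and 6 as lower (11.2%) in dcKO. U2af2, the subunit of U2AF that binds the polypyrimidine tract, was at 491 to 621 CPM in Ctrl, 263 to 274 CPM in cKO and 152 to 390 CPM in dcKO, and all 6 mutant embryos were below Ctrl. Its log2 fold change was -1.09 in both mutants (DESeq2 adjusted p = 0.00669 and 0.00601, edgeR adjusted p = 0.0594 and 0.0575). Snrpb, an Sm core protein, had a log2 fold change of -1.24 in cKO (DESeq2 adjusted p = 0.0135, edgeR adjusted p = 0.0744), with every cKO embryo below Ctrl. In dcKO its log2 fold change was -1.0 (DESeq2 adjusted p = 0.0438, edgeR adjusted p = 0.110), but at 68.6, 110.6 and 209 CPM the dcKO embryos overlapped the 183 to 350 CPM of Ctrl. Snrpf, another Sm protein, had a log2 fold change of -1.62 in cKO (DESeq2 adjusted p = 0.0388, edgeR adjusted p = 0.127), and in dcKO it overlapped Ctrl at -0.95 (DESeq2 adjusted p = 0.232, edgeR adjusted p = 0.310). Sf3a2, a subunit of the U2 snRNP, was at -1.24 in both mutants with a DESeq2 adjusted p of 0.104 and 0.0909. The list median was -0.35 in cKO and -0.32 in dcKO, beside 0.0098 and 0.11 for all tested genes, and 15 of 23 genes had every cKO embryo below every Ctrl embryo, beside 28% of all tested genes. With the correction for GC content it was also 15 of 23, beside 32%. In dcKO 6 of 23 were below every Ctrl embryo, beside 11.2%.

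In dcKO the counts of list genes beyond every Ctrl embryo moved with dcKO 3 and with GC content. Among the core spliceosome genes 0 of 23 were above and 6 below, 2 above and 14 below without dcKO 3, and 2 above and 5 below with the GC correction. The hnRNP genes had 0 of 22 above and 1 below with all embryos, and 7 above and 2 below without dcKO 3. Of the 11 speckle genes 0 were above and 3 below, 7 above and 3 below without dcKO 3, and 1 above and 2 below with the GC correction. The other SR and SR-like genes had 0 of 7 above and 1 below, 2 above and 1 below without dcKO 3, and 1 above and 3 below with the GC correction, and the 6 other kinases and their partners had 1 above and 1 below, 4 above and 1 below, and 0 above and 1 below. The shares of all tested genes were 15.6% above and 11.2% below with all embryos, and 32.3% and 30.7% without dcKO 3. With the GC correction 25.4% of tested genes with a GC value were above or below, a share that joins both directions. It cannot be set beside the above counts or the below counts alone. Without dcKO 2 the hnRNP genes had 0 above and 10 below and the core spliceosome genes 2 above and 9 below, beside 25.2% and 20.1% of all tested genes.

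**Figure D5:**
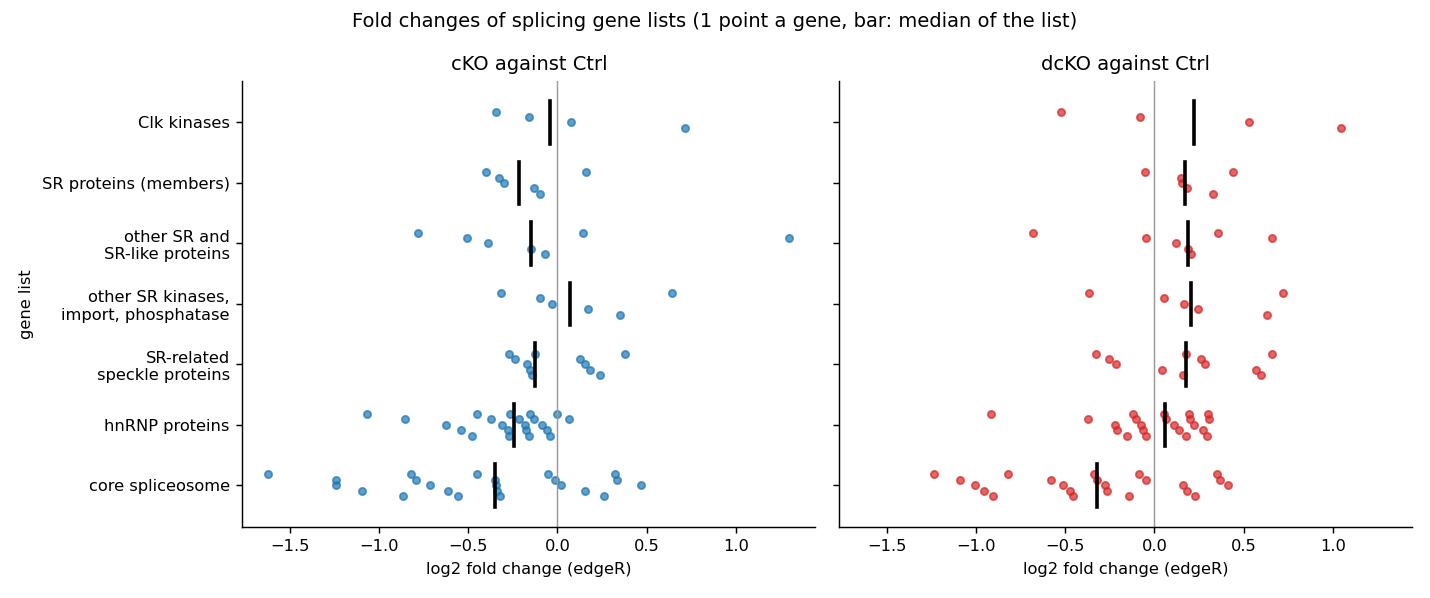
edgeR log2 fold change (horizontal axis) of every tested gene of 7 splicing lists (vertical axis) in cKO (left) and dcKO (right) against Ctrl, without GC correction, 1 point a gene and a bar at the median of the list. The hnRNP median moves from -0.24 in cKO to 0.058 in dcKO, while the core spliceosome median is at -0.35 and -0.32.

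Likeness to Clk1 over the 9 embryos was measured as the root mean square difference of log2 CPM, each gene taken relative to its own mean in Ctrl. The nearest 5 of 13679 genes were Fam111a (0.14), Zfp280c (0.16), Dtwd2 (0.17), Dram2 (0.17) and Fndc3c1 (0.17), with GC contents of 35.6% to 42.4%. None of these 5 is in the splicing lists. Of the 69 tested genes of the lists outside the 10, 5 were nearer to Clk1 than any of the other 9 Clk and Srsf genes, namely Srpk2 (0.32, rank 280), Prpf4b (0.35), Bclaf1 (0.35), Rbm39 (0.40) and Luc7l3 (0.47). Among those 9 Clk4 came nearest, at 0.48 and rank 1631, and Clk3 was farthest, at 1.27 and rank 10451.

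Marker genes of the cell types in the dissected tissue were summed in each embryo, with no test run. All 7 radial glia markers, 3 intermediate progenitor markers and 6 neuron markers had more than 10 reads in every embryo. The radial glia markers summed to 2728 to 3148 CPM in Ctrl, 2676 to 3073 CPM in cKO and 2823 to 3120 CPM in dcKO, and the intermediate progenitor markers to 359 to 451, 337 to 407 and 321 to 602 CPM. The summed level of the 6 neuron markers was 1015 to 1405 CPM in Ctrl, 703 to 1126 CPM in cKO and 503 to 1137 CPM in dcKO, lowest in dcKO 1. The 6 meninges markers summed to 780 to 858 CPM in Ctrl, 452 to 694 CPM in cKO and 324 to 518 CPM in dcKO, and the 6 markers of cortical hem and choroid plexus to 81.1 to 111 CPM, 117.4 to 352 CPM and 148 to 367 CPM. The 4 endothelium markers summed to 168 to 222 CPM in Ctrl, 165 to 225 CPM in cKO and 106 to 115 CPM in dcKO, and the 4 microglia markers to 28.1 to 37.0, 29.1 to 65.7 and 9.83 to 28.3 CPM. The 5 erythroid markers summed to 6018 to 8769 CPM in Ctrl, 7508 to 11640 CPM in cKO and 3812 to 5457 CPM in dcKO. The 7 subpallium markers summed to 1.19 to 1.51 CPM in Ctrl, 2.26 to 4.54 CPM in cKO and 1.78 to 8.66 CPM in dcKO, and of these Dlx1, Dlx2, Dlx5, Gad1, Gad2 and Gsx2 were at 0 in 2 to 8 of the 9 embryos. The meninges sums were lower, and those of cortical hem and choroid plexus and of subpallium higher, in all 6 mutant embryos than in any Ctrl embryo, and the endothelium and erythroid sums were lower in every dcKO than in any Ctrl embryo. Within the meninges list only Col1a1, Col1a2 and Col3a1 fell this way, while Dcn, Lum and Foxc1 overlapped Ctrl in both mutants. The subpallium sum was mostly Lhx6 in every embryo but dcKO 2. There Lhx6 was at 0.69 CPM, against 0.84 to 1.30 CPM in Ctrl, and other genes made the sum. The sums of the other lists overlapped between Ctrl and each mutant, though single genes within them did not. In cKO Pax6, Hes1, Hes5, Nes and Emx2 were each below every Ctrl embryo, and Sox2 overlapped. Vim, the largest part of that sum, was above, at 1659 to 2030 CPM against 1159 to 1496 CPM. Of the neuron markers Tubb3 and Dcx were below every Ctrl embryo in cKO, and the rest overlapped. The shares of all tested genes were 28% below and 29.2% above. The part of these differences in the levels of the Clk and Srsf genes was not tested, and in bulk tissue fewer cells of a type and less RNA per cell cannot be told apart.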

How the data were processed

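The authors deposited 1 table of raw read counts per gene for the 9 embryos. They sequenced stranded mRNA libraries, trimmed the reads with cutadapt, aligned them to mm39 with STAR, counted them with featureCounts and tested them with DESeq2. Symbols, positions, exon lengths and GC contents came from GENCODE M21 (GRCm38), another build than theirs, matched by Ensembl identifier. From the counts, edgeR 4.0.16 (R 4.3.3) fitted quasi-likelihood models with TMM factors to all 9 embryos over the 13680 genes whose lowest count exceeded 10. Calls needed a Benjamini-Hochberg adjusted p under 0.05 together with a change beyond 1 either way on the log2 scale. DESeq2 1.42.0 and limma 3.58.1 served as alternatives, and the test was checked on simulated data. All p-values printed as adjusted are Benjamini-Hochberg adjusted over all tested genes. The GC correction removed a loess curve (span 0.3) of each library's log2 deviations against GC content over 13561 genes. The depth of 21193798 to 45073349 reads gave every Clk and Srsf gene at least 346 reads in each embryo. Collection number blocks were also tried. The genes and lists were chosen with earlier results of these data known. All 10 genes are named, with, per other list, each gene called by either tool and the 2 with the largest mean change.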

Additional observations from a re-analysis of the deposited data

How the results depend on the processing

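The depth left at least 346 reads per gene and embryo, and the gene counts hold no information on isoforms or phosphorylation. Of the fold changes of the 10 genes under alternative settings, 859 kept direction and side of the threshold, 68 changed sign and 3 newly passed in the same direction, and 1 of those that changed sign also passed (Clk1 between dcKO and cKO with the collection block). Upper-quartile factors moved the median of all genes in cKO from 0.0098 to 0.12 and turned Srsf3 to 0.0064 in cKO, and Clk2 to -0.013 between dcKO and cKO, and with protein-coding genes only Srsf5 stood at 0.0030 between the mutants. The GC correction gave 0.060 for Clk2, -0.15 for Clk4 and -0.095 for Srsf5 in cKO, then 0.38 for Clk2, -0.080 for Clk4, -0.21 for Srsf3, -0.28 for Srsf5, -0.38 for Srsf7 and -0.13 for Srsf10 in dcKO, and -0.041 for Clk1 between the mutants. The collection number as a block gave, in dcKO against Ctrl, where it rests on 1 pair, -0.35 for Clk1, 0.34 for Clk2, 0.10 for Clk3, -0.63 for Clk4, -0.31 for Srsf2, -0.29 for Srsf3, -0.66 for Srsf7 and -0.62 for Srsf10. Between dcKO and cKO it gave -1.24 for Clk1, 0.46 for Clk3, -0.85 for Clk4, -0.19 for Srsf3, 0.18 for Srsf5, -0.25 for Srsf6, -0.35 for Srsf7 and -0.51 for Srsf10. The cause of these changes of sign was not tested.

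Embryos that share a replicate number did not deviate together (mean correlation -0.169, against 0.0836 for different numbers). The lowest value, -0.54, was that of Ctrl 3 with dcKO 3, which also share a collection number. The dcKO embryos also differed in how counts followed GC content, so these correlations cannot settle whether the replicate numbers pair embryos. With the replicate block 0 of the 10 genes were called in any comparison. With the replicate block and the GC correction, Clk2 was at 0.066, Clk4 at -0.15 and Srsf5 at -0.11 in cKO, while in dcKO Clk2 was at 0.37, Clk4 at -0.080, Srsf3 at -0.22, Srsf5 at -0.33, Srsf7 at -0.39 and Srsf10 at -0.16, and Clk1 at -0.064 between the mutants.

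The count of the 10 genes called went from 0 to 1 in dcKO by DESeq2 and with an adjusted p under 0.1 (Clk1 in both), and from 0 to 1 between dcKO and cKO with the collection block (Clk1, from an arm of 1 dcKO embryo assumed to vary like the others). When 1 embryo at a time was left out, the number called in dcKO was 0 to 1, with Clk1 called by edgeR and DESeq2 without dcKO 3. With an adjusted p under 0.05 irrespective of fold, the count stayed 0 in each comparison in the fit of all 9 embryos. In combinations of that threshold with another fit, chosen after seeing the data, the count was 5 in cKO with those 2 genotypes alone, and with the collection block 5 in cKO, 3 in dcKO and 1 between the mutants, the latter 2 counts resting on dcKO 3 alone. With the GC correction it was 2 in cKO (Srsf6 and Srsf7). Without dcKO 3 it was 1 in cKO, 5 in dcKO and 7 between the mutants. The leave-one-out values that changed sign ranged from -0.026 to 0.19 for Clk4 in cKO. In dcKO they ranged from -0.28 to 0.045 for Clk2, from -0.28 to 0.42 for Srsf2, from -0.11 to 0.56 for Srsf3, from -0.50 to 0.17 for Srsf6, from -0.31 to 0.43 for Srsf7 and from -0.083 to 0.76 for Srsf10. Between dcKO and cKO they ranged from -0.0026 to 0.70 for Clk1, from -0.10 to 0.20 for Clk2, from -0.55 to 0.036 for Clk3, from -0.0030 to 0.67 for Srsf3, from -0.11 to 0.027 for Srsf5 and from -0.099 to 0.57 for Srsf6.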
